A study of Mus musculus with 48 samples.

Results

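The Slc30 zinc transporters and the metallothioneins Mt1 and Mt2 were followed in liver and whole colon of mice whose diet differed in selenium and folate, before weaning, after weaning or both. The genes were chosen by name with earlier results of these data known, and include Slc30a1, Slc30a2, Slc30a4, Slc30a5, Slc30a6, Slc30a7, Slc30a9, Slc30a10, Mt1 and Mt2. Every probe of the array whose transcript accession belongs to 1 of these genes was taken. This gave 15 of 41174 probes, 13 for Slc30 genes and 2 for metallothioneins, and they stood for 9 of the 10 genes among 18434 named genes. Slc30a2 was not analysed here. Of the 9 genes, 5 had more than 1 probe. Where a single value is given for a gene, it is from the probe with the highest mean intensity over both channels and all 48 arrays.

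Groups were named by the diet of the dam and then the diet of the offspring. Diet H was supplemented with selenium and folate, and diet L was marginally deficient in both. HH mice had diet H throughout, HL mice had diet H from the dam and diet L after weaning, LH mice had diet L from the dam and diet H after weaning, and LL mice had diet L throughout. Dams had their diet before mating, through gestation and in lactation, and all groups shared a high-fat base diet. The offspring were C57/BL6 mice of 12 weeks, described in the study's methods as males that were fasted and re-fed before sampling. RNA of each mouse was labelled with Cy3 and hybridised beside a common multi-organ reference labelled with Cy5, without dye swap. Values are log2 of mouse over reference, so that 0 is a level equal to the reference and a negative value is a level below it. Liver gave 5 HH, 6 HL, 6 LH and 6 LL mice, as 1 HH mouse was on 2 arrays, and colon gave 6 mice in each group. No animal code of the labels occurs in both tissues, while the study's methods describe 6 offspring a group with both tissues taken. Whether liver and colon samples come from the same mice is thus not known, and comparisons of the tissues treat them as unpaired. Each of the 12 slides held 1 array of each diet group of 1 tissue, and the HH arrays of slides 3 and 6 are those of the same mouse. The labels do not tie offspring to dams, so litter-mates cannot be told apart and the spread between mice may be smaller than that between litters.

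In the Cy3 channel, 55.1% to 66.0% of the probes of a liver array and 66.8% to 73.7% of those of a colon array had signal well above background. The chosen probes were well above background on every array, except that the second Slc30a9 probe was so on 22 of 24 liver arrays, and none was saturated. Summed hepatocyte markers lay at 19.1 to 19.9 on the log2 intensity scale in liver and at 14.5 to 15.5 in colon. Markers of colon epithelium lay at 18.7 to 19.3 in colon against 12.7 to 13.8 in liver, and smooth muscle markers lay at 17.9 to 18.8 against 12.8 to 14.4. Pancreatic acinar markers reached 16.1 in 1 HL liver against at most 12.5 in the other livers, and adipocyte markers reached 12.7 in 1 LH liver against at most 9.25. In 4 samples Xist was bright and the Y-linked gene Eif2s3y was dim, against the methods' description of males. These were HL replicate 2 in liver, and HL replicate 5 and LL replicates 1 and 3 in colon. A further 4 samples, 1 liver LL, 2 colon HH and 1 colon LL, had both Xist and Eif2s3y signal. For the metallothioneins and Slc30a1, differences that these samples changed are given with and without them. In colon, lymphocyte markers reached 14.4 in LL replicate 4 against at most 11.0 in the other colons. Adipocyte markers of the colons ran up to 14.9 and were lowest in LL replicate 6 at 9.63, LH replicate 2 at 9.65 and LL replicate 2 at 10.9.

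Zinc leaves the cytosol through transporters of the Slc30 family, which move it out of the cell or into vesicles, the Golgi apparatus and other compartments, while the Slc39 family brings it in. Metallothioneins are small cysteine-rich proteins that bind zinc in the cytosol and release it. When free zinc increases, the factor MTF1 binds short metal response elements in promoters and turns on Mt1, Mt2 and Slc30a1, so these genes are commonly read as markers of cell zinc. Metallothioneins of the liver are also induced by glucocorticoids and in the acute phase response.

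The bases before a listed start of the 3 genes best known as targets of MTF1 are shown, as metal response elements lie in promoters. The sequences are the 250 bases before the start listed for each gene in RefSeq (GRCm38.p6), from the plus strand, on which all 3 genes lie. For Mt1 and Slc30a1 that start lies inside the gene as annotated, downstream of its outermost start. Most of the bases shown for Mt1 thus lie inside the annotated gene, and they need not hold its main metal response elements. Capitals mark matches to TGCACNC or TGCGCNC on either strand, the core letters of the element. Mt2 lies at chr8:94172618-94173567 and Mt1 just beyond it at chr8:94178883-94180327, and Slc30a1 lies at chr1:191906697-191913248.
Mt1, chr8:94178839-94179088: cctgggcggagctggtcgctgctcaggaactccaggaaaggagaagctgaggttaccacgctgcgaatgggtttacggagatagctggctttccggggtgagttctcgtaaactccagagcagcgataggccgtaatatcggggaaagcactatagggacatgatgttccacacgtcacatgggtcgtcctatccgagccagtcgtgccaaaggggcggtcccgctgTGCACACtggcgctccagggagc
Mt2, chr8:94172368-94172617: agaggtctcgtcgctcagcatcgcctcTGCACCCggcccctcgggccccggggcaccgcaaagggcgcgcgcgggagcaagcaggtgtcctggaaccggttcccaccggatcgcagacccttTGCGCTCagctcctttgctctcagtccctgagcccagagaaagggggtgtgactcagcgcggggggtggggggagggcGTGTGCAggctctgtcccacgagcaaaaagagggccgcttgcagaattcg
Slc30a1, chr1:191906531-191906780: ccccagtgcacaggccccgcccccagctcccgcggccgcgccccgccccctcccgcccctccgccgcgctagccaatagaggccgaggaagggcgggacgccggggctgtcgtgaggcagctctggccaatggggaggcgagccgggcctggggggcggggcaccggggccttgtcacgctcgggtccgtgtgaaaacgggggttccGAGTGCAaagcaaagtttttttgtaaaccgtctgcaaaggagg
Mt2 had 3 matches in these bases, 50 to 223 bases before the start, and Mt1 had 1, at 23 bases. The match of Slc30a1 was 43 bases before the start. With the 50 bases after the start included, there were 4 matches in Mt2, 3 in Mt1 and 2 in Slc30a1. The same 300-base window held 3 in Slc30a10, 3 in Slc30a4, 2 in Slc30a2, 1 in Slc30a5 and 0 in Slc30a6, Slc30a7 and Slc30a9. Of 27025 genes with such a window, 28.2% had at least 1 match, 8.07% at least 2, 2.27% at least 3 and 0.588% at least 4. A match is a run of letters and not a measured binding site, and other start sites of these genes were not searched.

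Mt1 was the member that differed most between livers. Its level was -1.46 ± 0.43 (SD, n = 6) in LL, -1.71 ± 0.50 (n = 5) in HH, -1.73 ± 1.16 (n = 6) in HL and -2.46 ± 0.47 (n = 6) in LH. Neighbours in that order differed by less than the SD of the more variable group. The 5 HH livers had -1.10, -2.40, -1.52, -1.55 and -1.98. The LH livers ran from -2.96 over a median of -2.55 to -1.85. The groups overlapped in part, with 3 HH livers above every LH liver, and on each of the 6 slides the LH array was below the HH array. In LL livers Mt1 ran from -2.08 over a median of -1.44 to -0.99, and on each of the 6 slides the LL array was above the LH array. The differences were -0.76 ± 0.40 (SE) for LH minus HH and 1.01 ± 0.38 for LL minus LH, the latter a 2.01-fold higher level in LL. Liver values in bulk RNA cannot tell fewer cells of a type from less RNA per cell.

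The HL livers spanned the whole range of Mt1, from -3.16 over a median of -1.89 to 0.21. The highest value was that of HL replicate 2, the liver with Xist signal and dim Eif2s3y, and it was the only liver in which Mt1 was above the reference. Without this mouse the HL minus HH difference of Mt1 was -0.41 ± 0.31, against -0.02 ± 0.40 with it. LH minus HH stayed at -0.76 without it, with an SE of 0.30. Without the livers with pancreatic or adipocyte markers LH minus HH of Mt1 was -0.74 ± 0.43.

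In liver Mt2 varied less between the groups than Mt1. It was below the reference in all 23 livers and all 24 colons. In liver it was -4.02 ± 0.40 (n = 6) in LL, -4.04 ± 0.34 (n = 5) in HH, -4.25 ± 0.73 (n = 6) in HL and -4.43 ± 0.44 (n = 6) in LH, so that LL and LH were again at the ends and neighbours differed by less than their spread. The HH livers had -4.04, -4.43, -3.53, -3.95 and -4.25, and the LH livers ran from -5.03 over a median of -4.42 to -3.72. LH minus HH was -0.39 ± 0.29 and LL minus LH was 0.41 ± 0.27. The groups overlapped in both, and the LH array was lower than the HH array on 5 of 6 slides. HL replicate 2 had the highest liver value of Mt2 too, and without it HL minus HH of Mt2 was -0.41 ± 0.27, against -0.21 ± 0.28 with it.

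**Figure D1:**
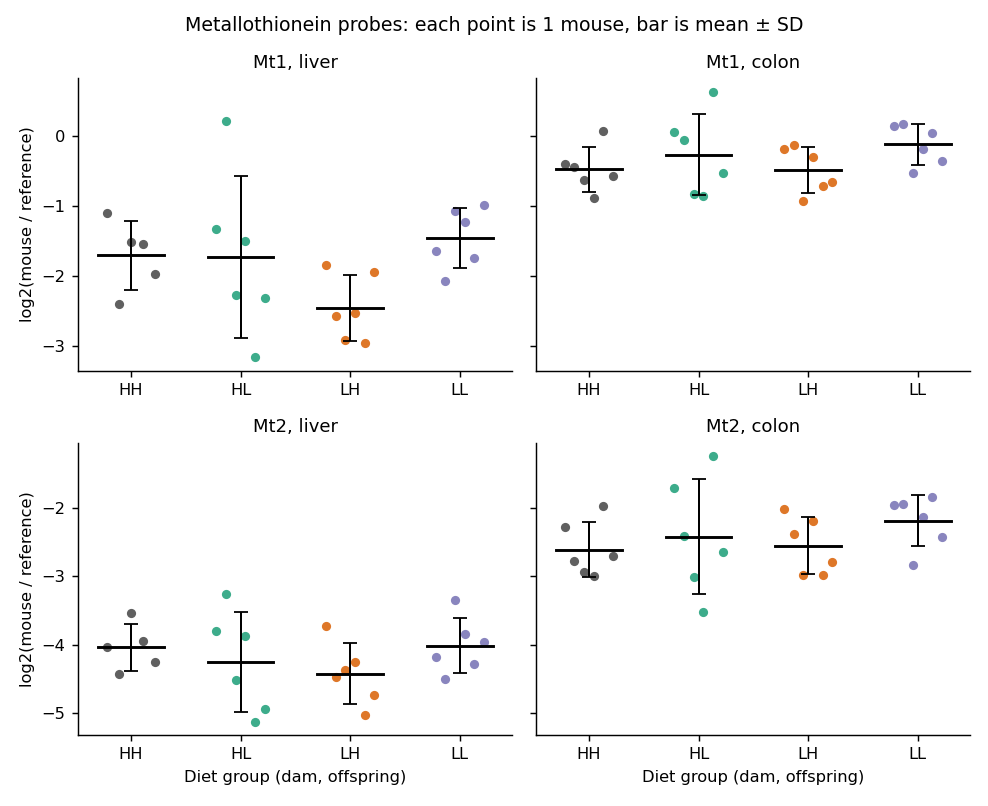
Log2 of mouse over reference (vertical axis) of Mt1 and Mt2 for each mouse, by diet group and tissue, with bars for the mean ± SD. In liver the LH mice lie between -2.96 and -1.85 for Mt1 while 1 HL mouse reaches 0.21, and in colon the groups overlap throughout.

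In colon the metallothioneins were closer to the reference, and the group means of Mt1, though not those of Mt2, were closer to each other than in liver. Mt1 was -0.48 ± 0.32 in HH, -0.27 ± 0.58 in HL, -0.49 ± 0.33 in LH and -0.13 ± 0.29 in LL (SD, n = 6 each). It ran from -0.89 over -0.52 to 0.06 in HH, from -0.87 over -0.30 to 0.63 in HL, from -0.94 over -0.48 to -0.14 in LH and from -0.54 over -0.08 to 0.16 in LL, as lowest, median and highest. Mt1 was below the reference in 18 of 24 colons and in 22 of 23 livers. Mt2 in colon was -2.61 ± 0.40 in HH, -2.42 ± 0.84 in HL, -2.55 ± 0.42 in LH and -2.19 ± 0.38 in LL. The groups overlapped for both genes. LL was the highest group for each, and its arrays were above the LH arrays on 6 of 6 slides for both genes.

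No metallothionein difference between diet groups passed the test in colon after adjustment. LL minus HH was 0.36 ± 0.21 (SE) for Mt1, with a 95% interval of -0.08 to 0.79, and 0.42 ± 0.29 for Mt2, with an interval of -0.17 to 1.02. LL minus LH was 0.36 ± 0.21 for Mt1 and 0.37 ± 0.29 for Mt2. LH minus HH was -0.01 ± 0.21 for Mt1 and 0.06 ± 0.29 for Mt2. The adjusted p of limma was 1.00 in every colon comparison for both genes. These errors include the differences between slides. With the slide as a block the SE of Mt1 was 0.15, and the unadjusted p of limma was 0.0253 for LL minus HH and 0.0222 for LL minus LH, with adjusted p of 1.00 and 0.637. For Mt2 the SE was then 0.22, and LL minus HH had an unadjusted p of 0.0660. The highest colon values of Mt1 and Mt2, 0.63 and -1.24, belonged to HL replicate 5, which had Xist signal and dim Eif2s3y. Without the colons of that kind LL minus HH of Mt1 was 0.39 ± 0.20 and HL minus HH of Mt1 was 0.03 ± 0.19, against 0.21 ± 0.21 with them. HL minus HH of Mt2 was -0.05 ± 0.26 without them, against 0.19 ± 0.29. Without all mice with Xist signal LL minus HH was 0.50 ± 0.23 for Mt1 and 0.69 ± 0.31 for Mt2, and the adjusted p of limma was still 1.00. LH minus HH of Mt2 was then 0.30 ± 0.26. Without the 4 colons with outlying lymphocyte or adipocyte markers, LL minus HH was 0.36 ± 0.27 for Mt1 and 0.40 ± 0.38 for Mt2.

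Slc30a1, the zinc exporter of the plasma membrane, was measured by 2 probes that differed in how far the diet groups lay apart in liver. On the brighter probe the HH livers had 0.26, 0.31, -0.01, 0.53 and -0.18, with a mean of 0.18 ± 0.28 (SD, n = 5), and the means were 0.28 ± 0.17 in HL, 0.33 ± 0.17 in LH and 0.40 ± 0.21 in LL (n = 6 each). All groups overlapped. The differences from HH were 0.10 ± 0.12 (SE) in HL, 0.15 ± 0.12 in LH and 0.22 ± 0.12 in LL.

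The second Slc30a1 probe was lower in every HH liver than in any other liver. The HH livers had -0.25, -0.28, -0.43, -0.30 and -0.52. HL livers ran from -0.23 over a median of 0.06 to 0.40, LH livers from -0.19 over 0.14 to 0.39 and LL livers from -0.24 over 0.09 to 0.66. The differences from HH were 0.42 ± 0.14 in HL, 0.51 ± 0.14 in LH and 0.48 ± 0.14 in LL, and on each of the 6 slides the HH array was the lower one in all 3 comparisons. The lowest mice of the other groups, at -0.23, -0.19 and -0.24, lay just above the highest HH mouse at -0.25. These 3 comparisons share the HH mice. Without the livers with Xist signal the difference of Slc30a1 on this probe was 0.51 ± 0.14 in LH and 0.39 ± 0.15 in HL, and without the livers with pancreatic or adipocyte markers it was 0.58 ± 0.14 and 0.48 ± 0.14. Why the 2 probes of Slc30a1 differ was not tested.

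In colon the order of the groups was another one, and LH was lowest on both Slc30a1 probes. On the brighter probe the means were 0.24 ± 0.16 in HH, 0.24 ± 0.29 in HL, -0.03 ± 0.27 in LH and 0.26 ± 0.40 in LL (SD, n = 6 each). On the second probe they were -0.58 ± 0.44, -0.50 ± 0.35, -0.97 ± 0.37 and -0.53 ± 0.44 in the same order. LH minus HL on the second probe was -0.47 ± 0.21 (SE), lower on 6 of 6 slides, with an unadjusted p of 0.0375 and an adjusted p of 1.00 in limma. LL minus LH was 0.44 ± 0.21 there, with a 95% interval of -0.003 to 0.88. No Slc30a1 difference passed the test in colon after adjustment. With the slide as a block LH minus HL of Slc30a1 on the second probe had an SE of 0.13, an unadjusted p of 0.0015 and an adjusted p of 0.434 in limma. The highest colon of Slc30a1 on the brighter probe, at 1.03, was LL replicate 1, which had Xist signal and dim Eif2s3y. Without the colons of that kind LL minus HH of Slc30a1 on this probe was -0.18 ± 0.13, against 0.03 ± 0.16 with them, and LL minus LH was 0.09 ± 0.13, against 0.29 ± 0.16. Without the 4 colons with outlying lymphocyte or adipocyte markers these differences of Slc30a1 were 0.22 ± 0.19 and 0.53 ± 0.20. The LH minus HH difference of Slc30a1 on the brighter probe was 0.41 ± 0.21 more in liver than in colon, and this comparison of the tissues did not pass either, with an adjusted p of 0.664 in limma.

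Slc30a4 loads zinc into endosomal and lysosomal vesicles and is the gene mutated in the lethal milk mouse. The HH livers had -0.96, -1.07, -0.85, -0.95 and -1.23, and the means of the 4 groups lay between -1.10 and -0.98. LH minus HH was 0.02 ± 0.10 and LL minus HH was -0.09 ± 0.10. In colon the group means lay between 0.10 and 0.17, and LH minus HH was -0.04 ± 0.18. All groups overlapped in both tissues.

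Slc30a5, Slc30a6 and Slc30a7 supply zinc to the early secretory pathway and the Golgi apparatus, where enzymes such as alkaline phosphatase take up the metal, and Slc30a5 and Slc30a6 work as a pair. All 6 probes of these genes had a higher mean in LH than in HH livers. Slc30a7 differed most. Its HH livers had -0.16, -0.26, -0.62, -0.22 and -0.44 on the brightest probe, and its LH livers ran from -0.42 over a median of -0.08 to 0.22. LH minus HH was 0.26 ± 0.14, 0.38 ± 0.12 and 0.27 ± 0.11 on its 3 probes, and LL minus LH was -0.21 ± 0.13, -0.34 ± 0.12 and -0.21 ± 0.10. LL minus HH was 0.04 to 0.07 on the 3 probes, so that the LL livers lay by the HH livers and the LH livers above both, with overlap of the groups on each probe. On the probe with the difference of 0.38, the LH array was above the HH array and above the LL array on 6 of 6 slides.

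Slc30a5 differed by little but had the smallest spread. The 5 HH livers had -0.51, -0.48, -0.50, -0.53 and -0.43 on the brighter probe, and the LH livers ran from -0.39 over a median of -0.36 to -0.27. These groups did not overlap, the highest HH liver lying just below the lowest LH liver, and the difference was 0.14 ± 0.07. The second Slc30a5 probe gave 0.18 ± 0.07 for LH minus HH, with overlap, and -0.15 ± 0.07 for LL minus LH. Slc30a6 was 0.14 ± 0.08 higher in LH and in HL than in HH, where the livers had 0.25, -0.14, 0.33, 0.29 and 0.21. The HH liver at -0.14 lay apart from the others, and all groups overlapped.

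In colon the largest difference among the 6 probes of the secretory pathway transporters was that of Slc30a7 in LL minus LH, at -0.17 ± 0.10. LH minus HH was 0.14 ± 0.10 for Slc30a7, -0.0015 ± 0.074 for Slc30a5 and -0.08 ± 0.13 for Slc30a6 on the brightest probe of each. The interval for Slc30a5, -0.15 to 0.15, was the narrowest of the members.

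Slc30a9 has been described as a zinc transporter of mitochondria. Both of its probes were higher in LH than in HH liver. On the brighter probe the HH livers had -0.73, -0.40, 0.16, -0.94 and -0.33, the LH livers ran from -0.51 over a median of -0.13 to 0.37, and the difference was 0.32 ± 0.21. On the dimmer probe it was 0.52 ± 0.23, and the LH array was higher on 6 of 6 slides. The size of this Slc30a9 difference depended on the background correction, being 0.86 ± 0.36 with a normexp offset of 0 and 1.28 ± 0.50 from the processed signals of the scanner software. LL minus LH was -0.33 ± 0.20 and -0.40 ± 0.22. The HH livers ranged widely and overlapped with the LH livers on both probes. In colon LH minus HH was -0.09 ± 0.13 on the brighter and 0.06 ± 0.17 on the dimmer probe.

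Slc30a10 belongs to the same family but is known mainly as a manganese exporter of liver and gut. It was above the reference in all livers on both probes. The HH livers had 1.25, 0.92, 0.73, 1.89 and 1.13 on the brighter probe, and the group means lay between 1.01 in HL and 1.18 in HH. In colon they lay between 0.91 in LH and 1.27 in HH and LL. LH minus HH was -0.12 ± 0.20 in liver and -0.36 ± 0.23 in colon, the colon interval being -0.83 to 0.11. On the second probe the colon difference was -0.11 ± 0.21. That probe was below the reference in 18 of 24 colons, while the brighter probe was above it in all 24. The mice of the diet groups overlapped in both tissues.

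**Figure D2:**
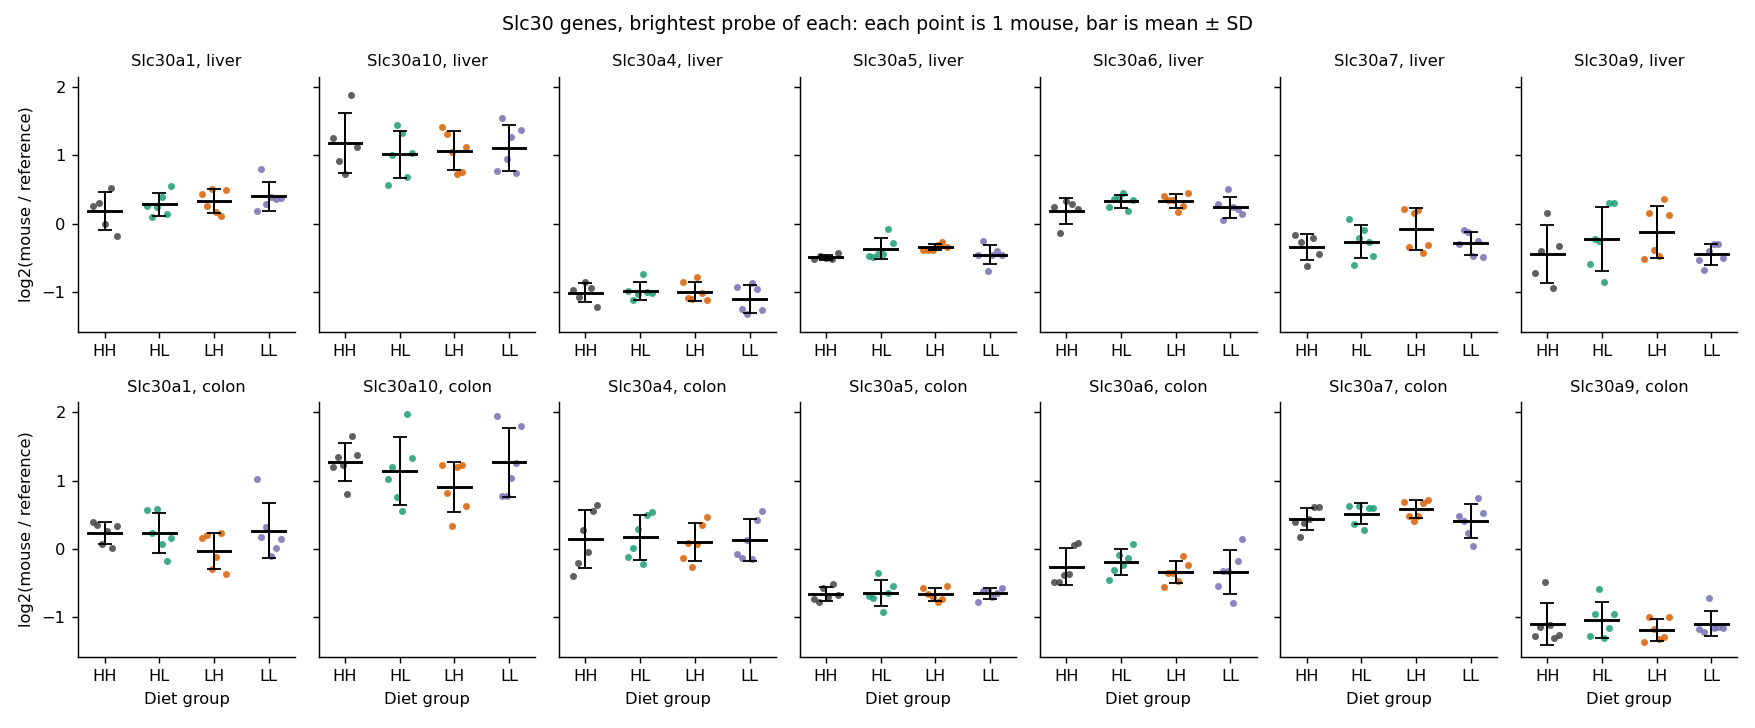
Log2 of mouse over reference (vertical axis) of the 7 Slc30 genes for each mouse, by diet group, with bars for the mean ± SD and 1 probe per gene. Slc30a4 lies between -1.32 and -0.74 in liver and between -0.40 and 0.65 in colon, and the diet groups of each gene overlap except LH and HH liver for Slc30a5.

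Counted over the 15 probes, 11 were higher in LH than in HH liver, with a median difference of 0.15 against -0.008 over all probes. With limma at an FDR under 0.05 and a fold change over 1.5, 0 of the 15 were called, beside 0% of all 41172 probes. At an unadjusted p under 0.05 there were 5, all higher in LH, beside 12% of all probes. Some genes enter this count with more than 1 probe, and over the brightest probe of each of the 9 genes it was 0. The mice of LH and HH did not overlap for 2, the second Slc30a1 probe and the brighter Slc30a5 probe, beside 1.54% of all probes. As results on zinc transporters in this comparison were known when the genes were chosen, these counts are a description and nothing is read from them.

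The other liver comparisons were described in the same way, and 0 of the 15 probes were called in each, beside 0% of all probes. At an unadjusted p under 0.05, HL minus HH had 2 of the 15 beside 4.37% of all probes, LL minus HH had 1 beside 3.45%, and LL minus HL had 1 beside 3.08%. LL minus LH had 3 beside 6.38% and LH minus HL had 0 beside 1.74%. Over the brightest probe of each gene the count was 1 in LL minus LH, that of Mt1, and 0 in the other comparisons. Groups that did not overlap were found for 1 probe in HL minus HH, beside 0.204% of all probes, and for 1 in LL minus HH, beside 0.328%. Both were the second Slc30a1 probe. The 3 probes of LL minus LH were Mt1, higher in LL, and 1 probe each of Slc30a5 and Slc30a7, lower in LL. With the slide as a block LL minus LH had 5 beside 10.3% of all probes, LL minus HL had 2 beside 5.35%, and LH minus HH had 7 beside 15.7%. HL minus HH then had 3 beside 7.17%, LL minus HH had 1 beside 5.15%, and LH minus HL had 0 beside 2.87%.

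In colon 0 of the 15 probes were called in each of the 6 comparisons with limma, beside 0% of all 41173 probes. At an unadjusted p under 0.05 there were 0 in LH minus HH, beside 3.24% of all probes, 0 in HL minus HH, beside 1.46%, and 0 in LL minus HH, beside 1.72%. There were also 0 in LL minus HL, beside 1.02%, and 0 in LL minus LH, beside 2.81%. LH minus HL had 1, the second Slc30a1 probe, beside 2.95%. With the slide as a block there were 4 in LL minus LH, beside 7.18% of all probes, which were Mt1 and both Slc30a1 probes, higher in LL, and 1 Slc30a7 probe, lower in LL. LH minus HL then had 2, both of Slc30a1, beside 7.9%, LH minus HH had 1, of Slc30a1, beside 8.08%, and LL minus HH had 1, Mt1, beside 3.44%. HL minus HH and LL minus HL stayed at 0, beside 3.29% and 2.4%, and no probe was called after adjustment. Of the 15 probes 6 were higher in LH than in HH colon, with a median difference of -0.009 against 0.004 over all probes. In tests of whether a diet difference was the same in liver and colon, no member had an adjusted p under 0.05 with limma, and for LH minus HH of Mt1 the liver and colon differences lay -0.75 ± 0.46 apart with an adjusted p of 0.726.

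**Figure D3:**
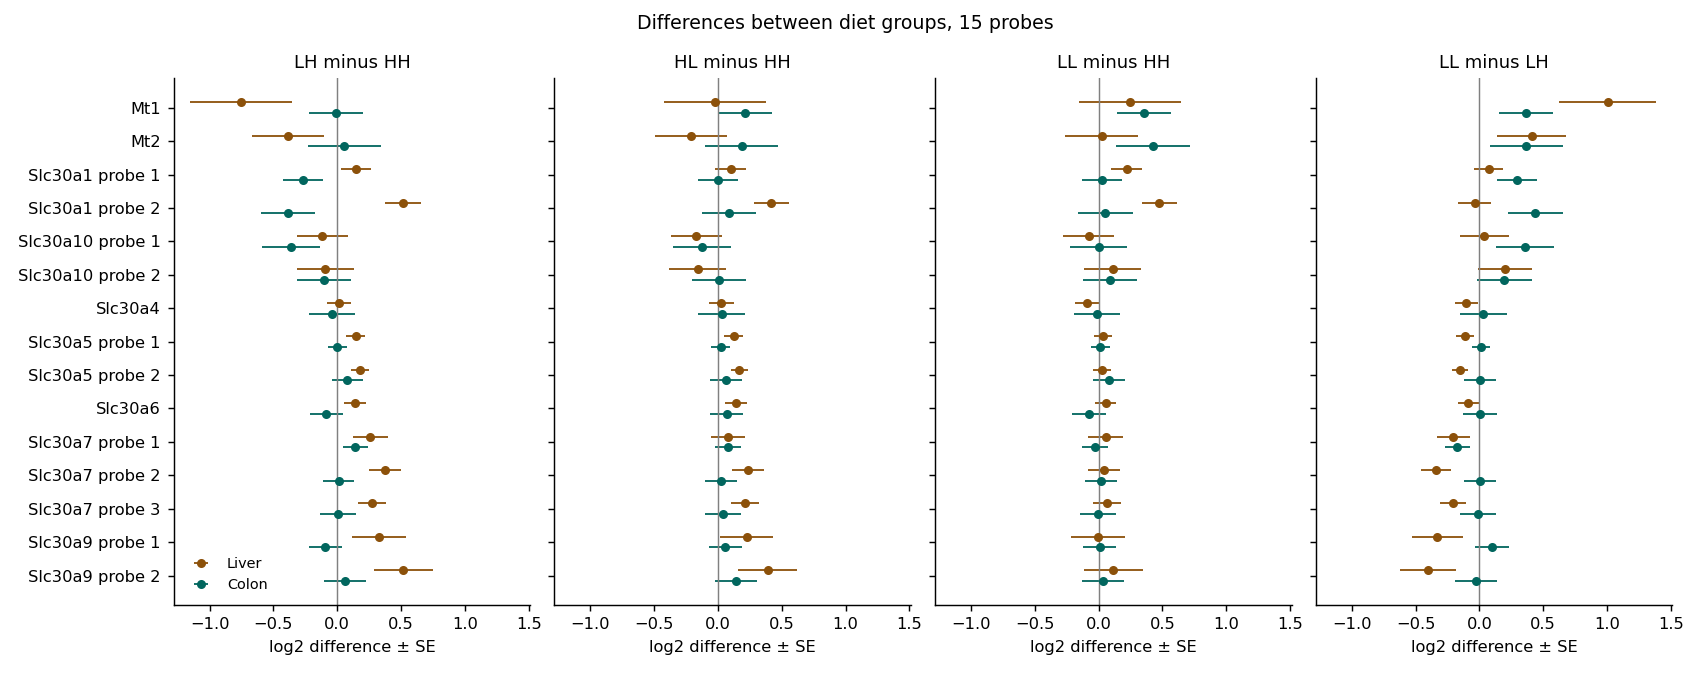
Log2 differences between diet groups (horizontal axis) with their SE for the 15 probes in liver and colon, 1 panel per comparison, with probes of a gene numbered from the brightest. In liver Mt1 is at -0.76 in LH minus HH and at 1.01 in LL minus LH, and the second Slc30a1 probe is at 0.51, 0.42 and 0.48 against HH.

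Between the tissues, Mt1, Mt2, Slc30a4 and Slc30a7 were lower in liver than in colon. Mt1 was -1.85 ± 0.77 (SD, n = 23) in liver and -0.34 ± 0.40 (n = 24) in colon, a difference of -1.50 ± 0.18 (SE) or 2.84-fold. Mt2 was -4.19 ± 0.50 and -2.44 ± 0.53, a difference of -1.75 ± 0.15 or 3.36-fold. Slc30a4 was -1.02 ± 0.15 and 0.13 ± 0.32, which is 2.23-fold lower in liver, and it was the only gene for which no liver overlapped any colon. The highest liver value of Slc30a4 was -0.74 and the lowest colon value was -0.40. Slc30a7 was at -0.72 ± 0.06 for liver minus colon on its brightest probe, and at -0.34 ± 0.06 and -0.76 ± 0.07 on the others. These 4 genes were lower in liver under all 62 alternatives of processing and of mice left out, but the size depended on the scaling. From the Cy3 channel alone the differences were -2.49 for Mt1, -2.54 for Mt2, -2.36 for Slc30a4 and -1.72 for Slc30a7. That setting scaled each tissue by itself, so its differences between the tissues lack a common scale. With each array centred on its median Slc30a4 was at -1.79 and Slc30a7 at -1.35.

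For Slc30a1, Slc30a5 and Slc30a6 the direction depended on the scaling. Slc30a9 was 0.80 ± 0.09 higher in liver, Slc30a6 0.56 ± 0.06 and Slc30a5 0.24 ± 0.03 higher, and Slc30a1 was 0.13 ± 0.07 higher. The second probes gave larger differences for Slc30a5 and Slc30a1, 0.60 ± 0.05 and 0.66 ± 0.11 higher in liver. The alternatives of scaling were run on the brightest probes only. With each array centred on its median in place of loess, Slc30a1 was at -0.47, Slc30a5 at -0.33 and Slc30a6 at -0.04 for liver minus colon, and Slc30a9 at 0.22. Slc30a9 turned under 1 of the 62 alternatives, being at -0.23 from the Cy3 channel alone, which scaled each tissue by itself. Slc30a10 was -0.06 ± 0.11 on the brighter and 1.82 ± 0.11 on the second probe, so that its probes gave different answers. The brighter Slc30a10 probe was at -0.69 with median centring and at 0.06 with a normexp offset of 0. Each slide held 1 tissue, so tissue and slide cannot be told apart and no test was made.

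The metallothioneins were among the genes that differed most between mice of the same diet group. In liver the SD of Mt1 within groups was 0.71, larger than that of 99.2% of 12356 genes with signal above background, and the SD of Mt2 was larger than that of 96.7%. In colon Mt2 with 0.54 exceeded 99.0% of 14378 genes, Slc30a10 with 0.42 exceeded 97.3% and Mt1 with 0.40 exceeded 96.4%. The median gene had an SD of 0.22 in liver and 0.20 in colon. At the other end, the SD of Slc30a5 in liver was 0.11, larger than that of 1.89% of genes, and Slc30a6 exceeded 7.89%. The 2 arrays of the same HH liver differed by 0.08 for Mt1 and by 0.13 for Mt2, and the 10 spots of the Mt1 probe on an array had a median SD of 0.12. From the lowest to the highest liver Mt1 spanned 10.4-fold, Mt2 3.63-fold and Slc30a5 1.53-fold. The highest Mt1 value, 0.21, was that of HL replicate 2, with Xist signal and dim Eif2s3y, and the next liver was at -0.99. The SD of Mt1 was 1.16 in HL, the group of this mouse, and 0.43 to 0.50 in the other liver groups. The rank of the SD of Mt1 was not computed without this mouse.

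Mt1 and Mt2 moved together across mice, and neither moved with Slc30a1. Pearson's r of Mt1 and Mt2 was 0.827 over 23 livers (Spearman's rho 0.817) and 0.941 over 24 colons (rho 0.943). The permutation p adjusted over 6 relations was 3e-05 for each r, from a p of 1e-05, the smallest that 100000 permutations can give. Without the 2 mice farthest from the median of Mt1, r was 0.752 in liver and 0.924 in colon. Within diet groups r was 0.828 and 0.940, and within slides it was 0.896 and 0.930. Without all mice with Xist signal it was 0.805 and 0.909. The genes are neighbours and similar in sequence, and how far the probes bind each other's transcript was not tested.

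Mt1 and Slc30a1 had r of -0.06 in liver and 0.09 in colon, and Mt2 and Slc30a1 had -0.15 and 0.04. The rho values were 0.04, 0.02, -0.10 and -0.08 in the same order, and the adjusted permutation p was 0.867 for each r. Without the 2 farthest mice the 4 values of r lay between -0.07 and 0.16. Within slides they lay between -0.34 and -0.11, with adjusted permutation p of 0.227 to 0.616. The second Slc30a1 probe gave r between -0.07 and 0.05. The relation of these genes was therefore not detectable over these mice.

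**Figure D4:**
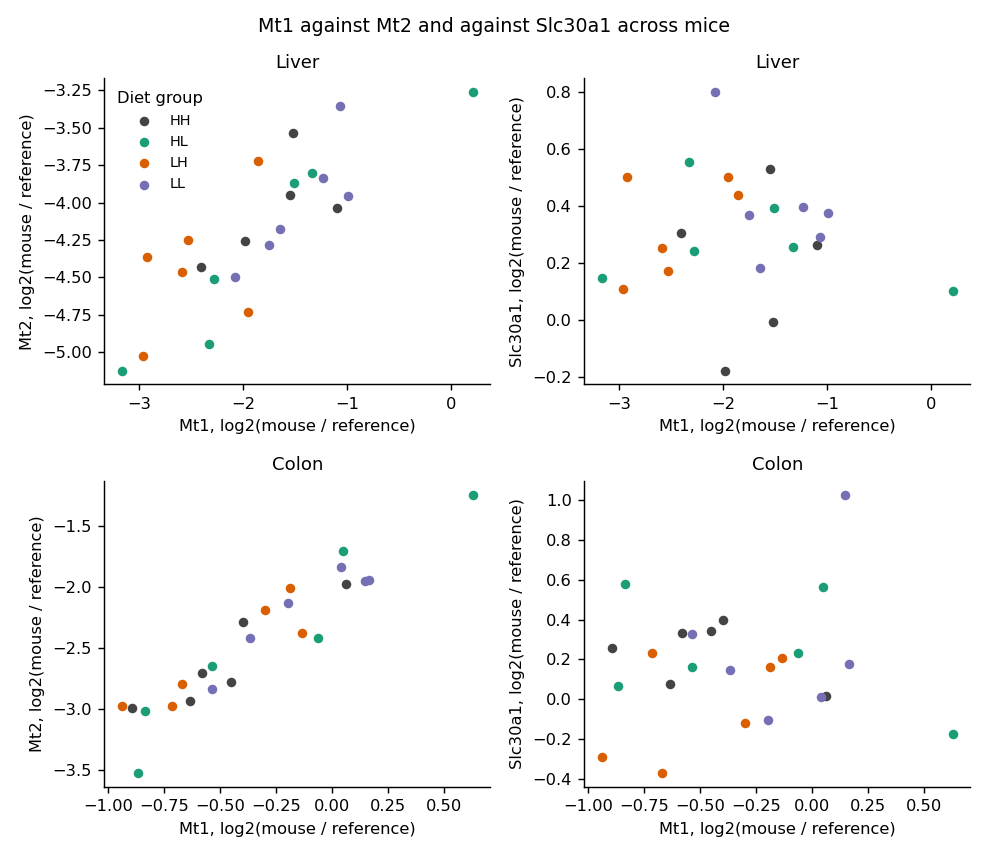
Mt1 (horizontal axis) against Mt2 and against Slc30a1 (vertical axes), each as log2 of mouse over reference, with 1 point per mouse coloured by diet group. The points follow a line for Mt2, with r of 0.827 in liver and 0.941 in colon, and show no line for Slc30a1, with r of -0.06 and 0.09.

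The genes most like Mt1 apart from the members were sought among genes above background, by Pearson's r across mice, and are given as a description. In 23 livers they were Trdmt1 with r of 0.784, Bex4 with 0.761, Camkk1 with 0.761, Mtmr12 with 0.753 and Cyp17a1 with 0.753. Over all 12234 such genes the median r with Mt1 was 0.05 and the 95th percentile was 0.48. In 24 colons they were Clec11a with 0.743, Slc52a2 with 0.735, Osr1 with 0.725, Acot5 with 0.696 and S100g with 0.670. S100g is an intestinal calcium-binding protein, and Acot5 and S100g were also the genes most like Slc30a10 in colon, with r of 0.783 and 0.751. In liver Taf1c with 0.839 and Atp2a2, the calcium pump of the endoplasmic reticulum, with 0.835 were most like Slc30a10. The points share slides and the reference, and HL replicate 5, with Xist signal and dim Eif2s3y, was the highest colon for both Mt1 and Slc30a10. HL replicate 2, with the same signals, was the highest liver for Mt1. The r of these genes was not computed without these mice.

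In colon the slide took a larger share of the differences between arrays than the diet did for every member probe. Of the sum of squares the slide held a median of 55.8% and the diet 5.90% over the 15 probes, against 40.4% and 7.31% over all probes. In liver the medians were 28.5% and 19.1%, against 27.9% and 11.3% over all probes. The slide exceeded the diet for 11 of 15. A tissue had more slides than diet groups, and the shares were not adjusted for this. Noise alone would thus give the slide the larger share, and whether slide or diet weighed more in liver is not read from them. The HH liver with a repeat array entered with each of its arrays. Slc30a4 in colon was at 82.2% for the slide, with slide means from -0.18 on slide 7 to 0.56 on slide 12. Slc30a9 had a mean of -0.74 on slide 9 and means between -1.27 and -1.08 on the others. Each slide held every diet group once, so these slide differences are balanced over the diets, and with slide as a block 0 of the 15 probes were called in any comparison.

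**Figure D5:**
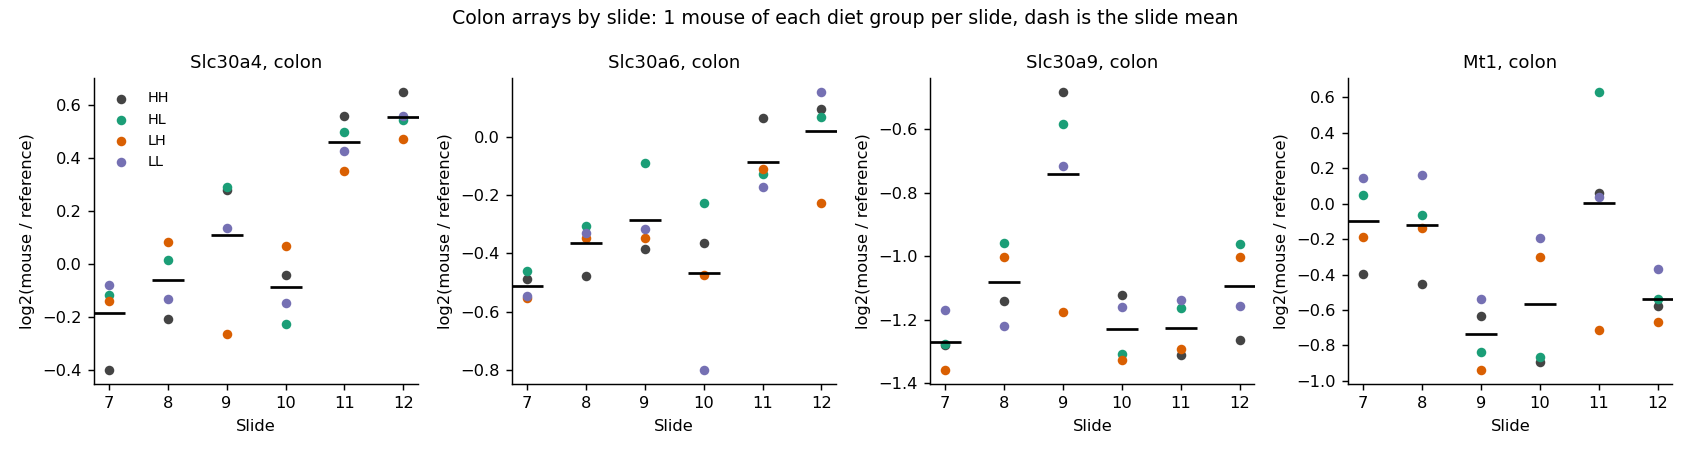
Log2 of mouse over reference (vertical axis) in colon by slide (horizontal axis) for Slc30a4, Slc30a6, Slc30a9 and Mt1, with 1 mouse of each diet group per slide and a dash for the slide mean. Slc30a4 lies at 0.35 or above in each mouse of slides 11 and 12 and below that on the other slides.

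Genes around the same zinc system were counted from lists chosen with earlier results known, and no gene of them was called in any comparison. Of the 14 Slc39 importers, 10 were higher in LH than in HH liver, and at an unadjusted p under 0.05 there were 3 higher and 1 lower. Over all probes of that comparison 47.3% were higher in LH and 12% had an unadjusted p under 0.05. Slc39a9 was at 0.08 ± 0.46 in LH and -0.40 ± 0.29 in HH, a difference of 0.48 ± 0.22, and Slc39a1 differed by 0.45 ± 0.19. In colon 9 of 14 were higher in LH, none at an unadjusted p under 0.05, beside 52.2% and 3.24% of all probes. The 2 largest differences there were -0.20 ± 0.18 for Slc39a9 and 0.10 ± 0.11 for Slc39a11. The median over the importers was 0.05 in both tissues. Mtf1 and 4 genes described as its targets were all lower in LH than in HH liver, with a median of -0.11 and 0 of the 5 at an unadjusted p under 0.05. Among them Slc40a1, the iron exporter, was at -0.29 ± 0.15 and Gclc, which makes a precursor of glutathione, at -0.22 ± 0.25. In colon 3 of these 5 were higher in LH, beside 52.2% of all probes, with Slc40a1 at 0.23 ± 0.15 and Gclc at -0.13 ± 0.09.

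Genes of the glucocorticoid and acute phase responses were counted in the same way, and their part in the metallothionein levels was not tested. Of 7 glucocorticoid response genes 6 were higher in LH than in HH liver, with a median of 0.50 and 4 at an unadjusted p under 0.05, beside 47.3% and 12% of all probes. Per1, a clock gene, differed by 0.80 ± 0.37 and Fkbp5, a regulator of the glucocorticoid receptor, by 0.63 ± 0.18. In colon 6 of 7 were higher, beside 52.2% of all probes, with a median of 0.09. Per1 was among them at 0.50 ± 0.33, and Sgk1 was at -0.33 ± 0.31. Of 9 acute phase genes 3 were higher in LH liver, with a median of -0.33, 2 higher and 2 lower at an unadjusted p under 0.05, beside the same shares of all probes. Orm2 was at -0.53 ± 0.12 and Fgb, a fibrinogen chain, at 0.52 ± 0.13. In colon 6 of the 9 were higher, beside 52.2% of all probes, with a median of 0.09. Saa3 was at 0.30 ± 0.19 and Saa2 at 0.24 ± 0.16 there. The metallothioneins and exporters outside the chosen set were Mt3, Mt4 and Slc30a3. In LH minus HH Mt4 was at -0.27 ± 0.15 in liver and 0.07 ± 0.11 in colon, Slc30a3 at 0.08 ± 0.08 in liver and Mt3 at -0.07 ± 0.09 in colon.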

How the data were processed

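RNA of 48 liver and colon samples was measured on 2-colour Agilent arrays. The authors deposited, per the file headers from Feature Extraction 10.10.1.1, raw intensities of both channels as spot and background medians, and a table of log2 ratios with the reference as numerator. The labels name R 3.0.2 and limma. With its sign turned, that table matched global loess without background correction with r of at least 0.9997. Here intensities were corrected with normexp (offset 50), a local background brighter than its spot being replaced by the array's median background, and normalized by global loess. Spots flagged as outliers were left out, spots of a probe and arrays of a mouse were averaged, and the 4 groups of a tissue were fitted with limma 3.58.1 in R 4.3.3. Correlations used SciPy 1.17.1. P-values were adjusted over all probes by Benjamini-Hochberg. The members, lists and tests were chosen with earlier results of these data known. Every member is named by its brightest probe, with other probes where they differ, and from each list the 2 genes with the largest LH minus HH difference are named. For the liver diet comparisons, which were known, counts and standard errors are given as a description and no p of a single member. In simulated data with known changes in liver LH minus HH, the fit recovered 48 of 50 probes at 2-fold, with 0 of 40974 called falsely. At 1.5-fold, which is the fold cut itself, it recovered 16 of 50. The simulated probes were drawn at random, so this recovery need not hold for genes of larger spread such as Mt1 and Mt2. Replicate n of every group shares a slide, and the fit with the slide as a block is an alternative. The number of mice limits the precision. The sources differ on the reference, given as pooled liver and intestine or as a whole pregnant mouse. Array position, array weights, other backgrounds and normalizations, and mice left out were also tried.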

Additional observations from a re-analysis of the deposited data

Results flagged for a closer look

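In 72 groups of mice, 1 for each member gene, tissue and diet, the highest or lowest mouse was checked for standing apart by Dixon's criterion, which flags about 1 group in 20 by chance. In 5 of the groups a mouse stood apart. Slc30a1 in LL liver replicate 2 was at 0.798, against 0.18 to 0.40 in the other LL livers. Slc30a4 in HL liver replicate 4 was at -0.74, against -1.12 to -0.98, and Slc30a6 in HH liver replicate 2 was at -0.137, against 0.21 to 0.33. Slc30a9 in HH colon replicate 3 was at -0.484, against -1.31 to -1.12, and in LL colon replicate 3 at -0.716, against -1.22 to -1.14. The latter mouse had Xist signal and dim Eif2s3y. These 2 colons were both on slide 9, where the mean of Slc30a9 was -0.74, and the part of the slide in their values was not tested.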

How the results depend on the processing

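Under every alternative that was run, 0 of the 15 member probes were called in each of the 12 comparisons, the range without each mouse in turn being 0 to 0. With the slide as a replicate block the count was likewise 0 in each, and the block changed no call, while the number at an unadjusted p under 0.05 went from 0 to 4 in colon LL minus LH. Over all probes the LH minus HH count in liver was 0 in the reported setting, 106 in a fit of all 8 groups, 17 with the 2 groups alone, 6 with the 2 arrays of 1 HH mouse as 2 mice, 2 with array weights and 1 with array position as a block. Without HL replicate 4 it was 2 and without LL replicate 4 it was 1. No cause of these counts was tested. The correlation of Mt1 and Mt2 lay between 0.796 and 0.896 in liver and between 0.909 and 0.953 in colon and kept its call under all 39 alternatives in liver and 40 in colon. None of the 4 correlations with Slc30a1 was past the threshold under any of 40 in liver and 41 in colon. Slc30a10 in LH minus HH liver was at 0.06 without HH replicate 4, against -0.12. Leaving out all mice with Xist signal, leaving out livers with pancreatic or adipocyte markers, and leaving out colons with outlying lymphocyte or adipocyte markers, were chosen after seeing the data. With 5 or 6 mice a group, a 1.5-fold change was recovered in 16 of 50 simulated probes in liver and 24 of 50 in colon. A call needs a fold change over 1.5, so this recovery reflects that cut as well as the number of mice. The simulated probes were drawn at random from all probes, each with independent noise of its own SD and no slide effect. In liver the SD within groups was 0.71 for Mt1 and 0.51 for Mt2, against 0.22 for the median gene above background. The simulated recovery need not hold for them. Member differences of 1.5-fold, and of 2-fold for the metallothioneins, could be missed.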
